A study of Mus musculus with 9 samples.

Results

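The genes of the mitochondrial respiratory chain and ATP synthase were followed in cultured mouse myoblasts with forced expression of Pax3 or Pax7. They were taken by symbol, as genes whose names begin with Nduf, Uqcr, Cox4 to Cox8 or Atp5, and the genes Sdha, Sdhb, Sdhc and Sdhd. Of 19661 genes measured, 80 matched: 34 named as subunits of complex I, 7 assembly factors of complex I, 4 subunits of complex II, 7 of complex III, 16 of complex IV and 12 of complex V. A further 16 genes that fit these names, among them Cox5b, Cox7c and Uqcrb, were not analysed here. In all, 3 groups of Balb/c skeletal muscle myoblasts were compared, with 3 arrays each: cells with an empty vector, whose label also reads CTAP, cells overexpressing Pax3 and cells overexpressing Pax7. Every group was kept in F10 with 20% fetal bovine serum plus 4 ng/ml of basic FGF. The sources used here do not give the vector, its promoter, what CTAP means, or whether a line was 1 clone or a pool.

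The respiratory chain passes electrons from NADH, at complex I, and from succinate, at complex II, through coenzyme Q to complex III, and from there through cytochrome c to complex IV, which reduces oxygen. Complexes I, III and IV pump protons as they do so, and complex V uses the proton gradient to make ATP. Skeletal muscle and heart replace some widely expressed subunits of complex IV with their own isoforms, Cox6a2, Cox7a1 and Cox8b, which come on as muscle matures. Pax3 and Pax7 are related transcription factors of muscle precursors, Pax3 mainly in the embryo and Pax7 in the satellite cells of adult muscle.

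The stretch upstream of the start site is shown for 4 members that were lower than control in both Pax groups: Cox7a1 and Cox8b as muscle isoforms, Cox6a1 as the widely expressed partner of a muscle isoform, and Uqcrh as the complex III subunit with the largest change. Each run holds 250 bases, 5′ to 3′ on the gene's strand and ending just before the start, from RefSeq's promoters on GRCm38.p6: chr7:30183921-30184170, plus strand, for Cox7a1, chr7:140900447-140900696, minus strand, for Cox8b, chr5:115348959-115349208, minus strand, for Cox6a1 and chr4:116075071-116075320, minus strand, for Uqcrh. Capitals mark matches, on either strand, to the E-box bound by myogenic factors (CANNTG), to the NRF1 motif (GCGCA, any base, GCGC) and to the ETS motif (CCGGAAG, bound by GABPA among others).
Cox7a1: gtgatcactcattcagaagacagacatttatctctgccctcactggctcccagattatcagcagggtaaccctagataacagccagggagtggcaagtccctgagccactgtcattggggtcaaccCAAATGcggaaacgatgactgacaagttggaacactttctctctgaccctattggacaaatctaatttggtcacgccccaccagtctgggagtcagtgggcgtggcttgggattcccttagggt
Cox8b: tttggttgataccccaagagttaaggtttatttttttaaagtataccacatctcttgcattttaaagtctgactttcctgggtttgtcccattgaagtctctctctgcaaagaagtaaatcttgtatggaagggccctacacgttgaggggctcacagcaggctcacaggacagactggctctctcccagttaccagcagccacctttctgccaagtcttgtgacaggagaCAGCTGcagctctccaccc
Cox6a1: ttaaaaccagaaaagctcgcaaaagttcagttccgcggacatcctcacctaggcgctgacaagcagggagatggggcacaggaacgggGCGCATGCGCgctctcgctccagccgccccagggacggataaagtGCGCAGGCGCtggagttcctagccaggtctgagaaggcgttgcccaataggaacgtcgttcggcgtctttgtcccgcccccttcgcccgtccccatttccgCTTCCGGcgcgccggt
Uqcrh: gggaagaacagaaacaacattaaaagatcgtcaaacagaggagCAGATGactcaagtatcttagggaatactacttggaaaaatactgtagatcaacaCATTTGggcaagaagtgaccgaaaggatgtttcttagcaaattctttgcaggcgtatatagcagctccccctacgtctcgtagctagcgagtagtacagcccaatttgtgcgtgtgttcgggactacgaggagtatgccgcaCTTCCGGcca
Cox7a1 and Cox8b each held 1 E-box, at 124 and 19 bases before the start, and no match to the NRF1 or ETS motif. Their widely expressed partners, Cox7a2 and Cox8a, had the same counts, 1 E-box and no NRF1 or ETS match. The third muscle isoform, Cox6a2, had no promoter among those listed. Cox6a1 held 2 NRF1 matches, at 162 and 117 bases, and an ETS match at 16 bases. Uqcrh held 2 E-boxes, at 207 and 152 bases, and an ETS match at 10 bases. Of 70 promoters listed for 65 of the member genes, 17.1% held the NRF1 motif and 14.3% the ETS motif, against 3.74% and 6.91% of all 32851 promoters. The E-box was in 42 of the members' 70 promoters and in 66.2% of all promoters. The MEF2 motif (CTA, any 4 bases, TAG) was in 0 of the 70 and in 3.2% of all promoters. A match is a run of letters and does not show binding. Among the 22 promoters of genes lower in both Pax groups, 3 (13.6%) held the NRF1 motif, against 9 of the 48 others (18.8%). The ETS motif was in 5 of the 22 (22.7%) and in 5 of the 48 (10.4%), and the E-box in 11 of the 22 and 31 of the 48 (64.6%).

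The overexpressed genes followed the labels. Pax3 lay at log2 intensities of 11.01 to 11.1 in the Pax3 arrays, against 5.78 to 5.91 in control and 6.8 to 6.87 in Pax7 arrays. Pax7 lay at 12.25 to 12.31 in the Pax7 arrays, and was higher in control (10.45 to 10.6) than in Pax3 arrays (8.14 to 8.26). Xist, expressed from the inactive X chromosome, lay at 4.62 to 4.85 in control and at 11.7 to 12.04 in all Pax3 and Pax7 arrays, while the Y-linked Uty lay at 9.17 to 9.36 in control and at 3.71 to 3.91 in the others. The control cells thus differed from both Pax lines in the sex chromosomes they express, and for each comparison with control below that difference and the overexpressed factor cannot be told apart. All 7 markers of dividing myoblasts lay above 8 in all groups, but not all held steady. By limma, 4 were lower than control and 1 higher in Pax3 cells, with a median log2 change of -0.47. In Pax7 cells 5 were lower and 1 higher, with a median of -0.65. The higher one was Myf5 in both (1.97 and 2.02). The 16 markers of differentiated muscle, such as myosins, troponins and Ckm, were all lower than control in both Pax groups by limma, with median log2 changes of -1.36 (Pax3) and -2.32 (Pax7), and their summed level lay at 14.5 to 14.69 in control, 13.19 to 13.24 in Pax3 and 12.2 to 12.42 in Pax7 arrays. Defining markers of adipocytes and endothelial cells lay under 8 in every group. By limma 0 of 4 adipocyte markers were higher in Pax3 and 2 in Pax7 cells. Of 4 endothelial markers 1 was higher in Pax3 and 2 in Pax7 cells, with Tek higher in both (0.38 and 0.74). Of 5 macrophage and leukocyte markers Cd68 alone was above 8, in the Pax3 (8.71 to 8.73) and Pax7 arrays (9.34 to 9.43), and Ptprc, Adgre1, Csf1r and Lyz2 lay under 6 throughout. The 7 fibroblast markers had summed levels of 9.62 to 9.7 in control, 9.55 to 9.75 in Pax3 and 9.35 to 9.43 in Pax7 arrays. Within these sums, by limma, Col3a1 was lower (-0.26 and -0.88) and Pdgfra higher (0.42 and 0.58) in Pax3 and Pax7 cells. No other of the 7 was called against control. In bulk samples fewer cells of a type and less RNA per cell cannot be told apart. No label tells whether a group's 3 samples were grown as separate cultures, so the p-values reflect the spread among these arrays, which may be technical.

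Respiratory chain genes were among the brighter genes of the arrays. Their median over the 9 arrays was 10.2, against 6.88 for all genes, and 75 of 80 lay at or above the median gene. Over the 80 members, the median log2 intensity was 10.3 to 10.45 in the control arrays, 10.13 to 10.16 in the Pax3 arrays and 10.12 to 10.15 in the Pax7 arrays. The Pax3 and Pax7 arrays thus lay below all control arrays and overlapped each other, while the median over all genes moved little, from 6.832 to 6.877 over the 9 arrays.

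Comparison with control asked how expression in each Pax line differed from that in the control cells. The part of the factor in such a difference was not tested. In Pax3 cells, 27 of the 80 members were lower and 7 higher by limma (Benjamini-Hochberg adjusted p under 0.05 over all genes), or 33.8% and 8.75% of them. Of all genes tested, 39.6% passed this threshold, 19.7% lower and 19.8% higher, and of the 9831 brighter genes, those at or above the median intensity, 31.0% were lower and 30.7% higher. The members' share of lower genes was near that of the brighter genes, and their share of higher genes was smaller. The members' median log2 change was -0.0875, against -0.00649 for the brighter genes. In Pax7 cells, 37 members were lower (46.2%) and 5 higher (6.25%), where 43.2% of all genes passed, 21.5% lower and 21.6% higher, and 3343 of the 9831 brighter genes were lower and 3044 higher. Their median change was -0.112, against -0.015 for the brighter genes. Most changes were small. Against a change of 1.2-fold (limma's treat), 6 members stayed lower and 1 higher in Pax3 cells, where 16.6% of all genes passed (8.12% lower and 8.48% higher), and 6 lower and 0 higher in Pax7 cells, where 19.4% passed (9.66% lower and 9.76% higher). The 6 were the same genes in both: Cox7a1, Cox8b, Cox6b2, Ndufa9, Ndufb10 and Uqcrh. Cox6a2 was the member higher in Pax3 cells.

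Both comparisons share the control arrays. Side by side, 25 members were lower in both and 3 higher in both (Cox6a2, Atp5j and Atp5o), 12 were lower past the threshold in Pax7 but not in Pax3 cells and 2 the reverse, 4 were higher past it in Pax3 but not in Pax7 cells and 2 the reverse, and 32 passed in neither. Of all genes tested 17.1% were lower in both and 16.3% higher in both, and of the 9831 brighter genes 2653 and 2544 were. No member was called higher in one and lower in the other, as 0.417% of all genes were. With the groups' 3 arrays set against each other, 30 members of the Pax3 cells lay wholly below control and 11 wholly above (22.3% and 22.8% of all genes), and in the Pax7 cells 47 below and 11 above (26.2% and 29.3% of all genes). Of the 9831 brighter genes, 3420 lay wholly below control and 3318 wholly above in Pax3 cells, and 4068 and 3710 in Pax7 cells.

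**Figure D1:**
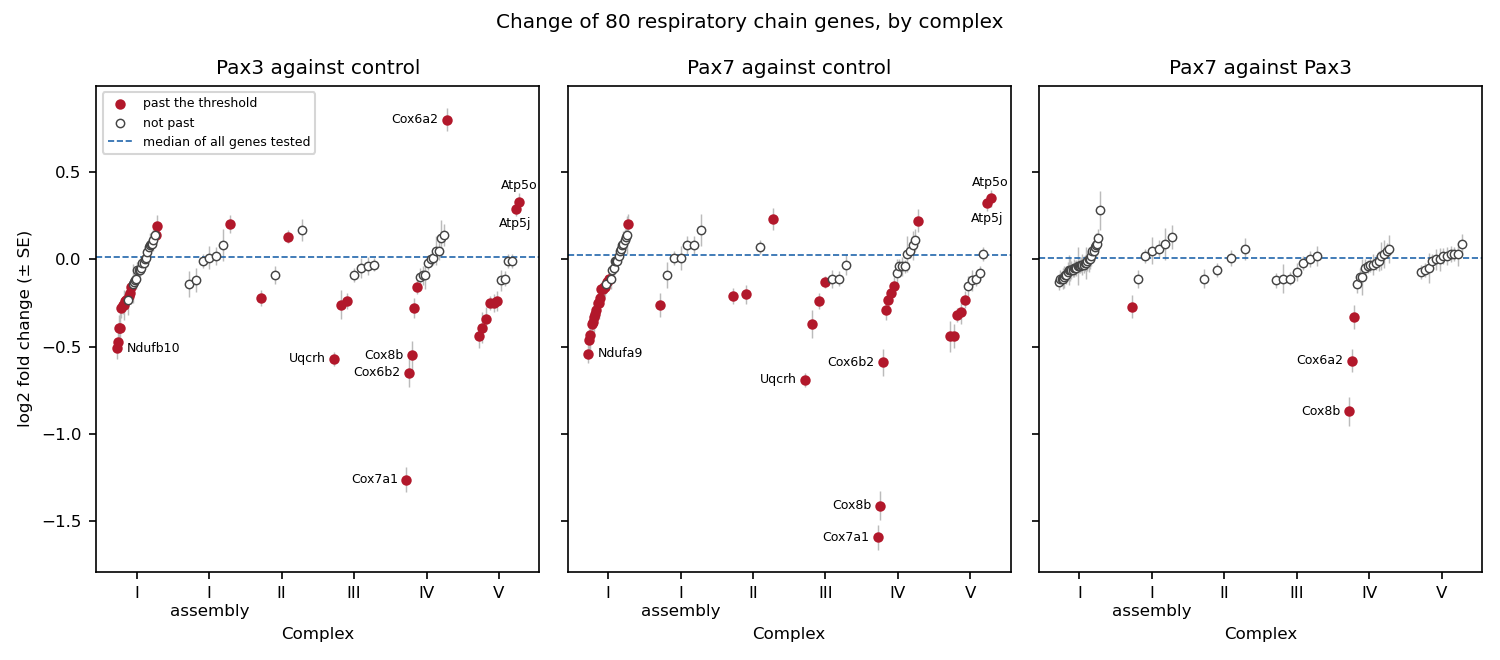
Log2 fold change of each of the 80 members (points, with moderated standard errors as bars) by complex, for Pax3 against control, Pax7 against control and Pax7 against Pax3. Filled points passed an adjusted p of 0.05 in limma, and the dashed line is the median of all genes tested. Most points of complexes I, III and V lie below the line in both comparisons with control, Cox7a1 is lowest at -1.26 and -1.59, and Atp5j and Atp5o stand apart at the top of complex V.

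The muscle isoforms of complex IV did not all move one way. Cox7a1, the muscle isoform of subunit VIIa, had the largest change of the 80 members in both comparisons with control. It read 9.13, 9.35 and 9.25 in the control arrays, 8.0, 7.95 and 8.0 in the Pax3 arrays and 7.60, 7.79 and 7.55 in the Pax7 arrays. The 3 groups did not overlap and fell in that order. It was 2.4-fold lower in Pax3 cells (log2 change -1.26 ± 0.071 SE, adjusted p = 1.01e-07, limma) and 3.02-fold lower in Pax7 cells (-1.59 ± 0.071, adjusted p = 9.97e-09), and its level in Pax7 cells was below that in Pax3 cells by 1.26-fold (adjusted p = 0.00767).

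Cox8b, the muscle isoform of subunit VIII, read 9.10, 9.39 and 9.19 in control, 8.84, 8.59 and 8.62 in Pax3 and 7.76, 7.83 and 7.86 in Pax7 arrays. Every Pax3 array lay below control and every Pax7 array below all Pax3 arrays. Its log2 change was -0.55 ± 0.0822 (adjusted p = 0.000258, limma) in Pax3 cells and -1.41 ± 0.0822, or 2.66-fold lower (adjusted p = 9.37e-08), in Pax7 cells. From Pax3 to Pax7 cells the log2 change was -0.87 (adjusted p = 3.03e-05).

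Cox6a2, the muscle isoform of subunit VIa, went the other way. It read 7.52, 7.53 and 7.61 in control, 8.38, 8.23 and 8.45 in Pax3 and 7.88, 7.72 and 7.71 in Pax7 arrays. The Pax3 arrays were the highest, with no overlap with either other group. Cox6a2 was 1.74-fold higher in Pax3 cells (0.80 ± 0.0659, adjusted p = 2.29e-06, limma). In Pax7 cells its change was 0.22 (adjusted p = 0.0203), a call that ended when control replicate 1, control replicate 2 or Pax7 replicate 1 was left out. Between Pax7 and Pax3 cells its log2 change was -0.58 (adjusted p = 0.000113).

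Each of these isoforms has a widely expressed partner. Cox6a1 read 11.25 to 11.31 in control, 10.89 to 11.09 in Pax3 and 10.92 to 11.04 in Pax7 arrays and was lower in both, by -0.28 (adjusted p = 0.00237, limma) and -0.29 (adjusted p = 0.00183). Cox7a2 changed by -0.10 in Pax3 cells (adjusted p = 0.143) and by -0.15 in Pax7 cells (adjusted p = 0.0266), a call that ended without control replicate 1 or 2 or any 1 of the Pax7 replicates. Cox8a changed by -0.02 and -0.04 (adjusted p = 0.752 and 0.515), with groups that overlapped. The difference in change between the muscle isoform and its partner was 1.08 ± 0.116 (SE) for Cox6a2 over Cox6a1 in Pax3 cells and 0.50 ± 0.0672 in Pax7 cells, -1.16 ± 0.0954 and -1.44 ± 0.121 for Cox7a1 over Cox7a2, and -0.52 ± 0.138 and -1.37 ± 0.104 for Cox8b over Cox8a.

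The other 3 pairs hold an isoform of another tissue or condition. Cox6b2, known from testis, read 6.45, 6.55 and 6.82 in control, 6.0, 5.91 and 5.94 in Pax3 and 6.01, 6.05 and 5.98 in Pax7 arrays. Both Pax groups lay below control and overlapped each other, with changes of -0.65 (adjusted p = 4.96e-05, limma) and -0.59 (adjusted p = 9.1e-05), all near the median level of the arrays. Its partner Cox6b1 changed by -0.16 and -0.19 (adjusted p = 0.00668 and 0.00196). Cox4i2, induced by low oxygen in lung and other tissues, changed by 0.14 and 0.11 and passed in neither (adjusted p = 0.109 and 0.178), and its partner Cox4i1 by -0.09 and -0.08 (0.412 and 0.495). Ndufa4l2, also induced by low oxygen, stayed dim at 5.96 to 6.13 in all arrays and passed in neither, while Ndufa4, named for complex I and since assigned to complex IV, was lower by -0.39 (adjusted p = 0.001) and -0.31 (adjusted p = 0.00442).

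In each of the 6 pairs, the difference between isoforms in the control arrays did not overlap that in either Pax group. An exact two-sided permutation test of 3 arrays against 3 gave p = 0.1 for every pair, the smallest that it can give, and adjusted p = 0.1 over the 6 pairs, so that this design cannot reach 0.05. With all 6 Pax arrays against the 3 controls, the exact p was 0.0238 for each pair, again the smallest it can give, and 0.0238 after adjustment over 6 pairs. That test pools the Pax3 and Pax7 lines and takes all arrays as exchangeable. Arrays of separate lines, which may be technical repeats, need not be, so no conclusion is drawn from it. How often other pairs of genes differ without overlap was not tested. Between Pax7 and Pax3 cells, the differences for the 3 muscle pairs did not overlap (-0.57, -0.28 and -0.85 for Cox6a2, Cox7a1 and Cox8b against their partners, exact p = 0.1 each, adjusted p = 0.2), and those of the other pairs did.

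**Figure D2:**
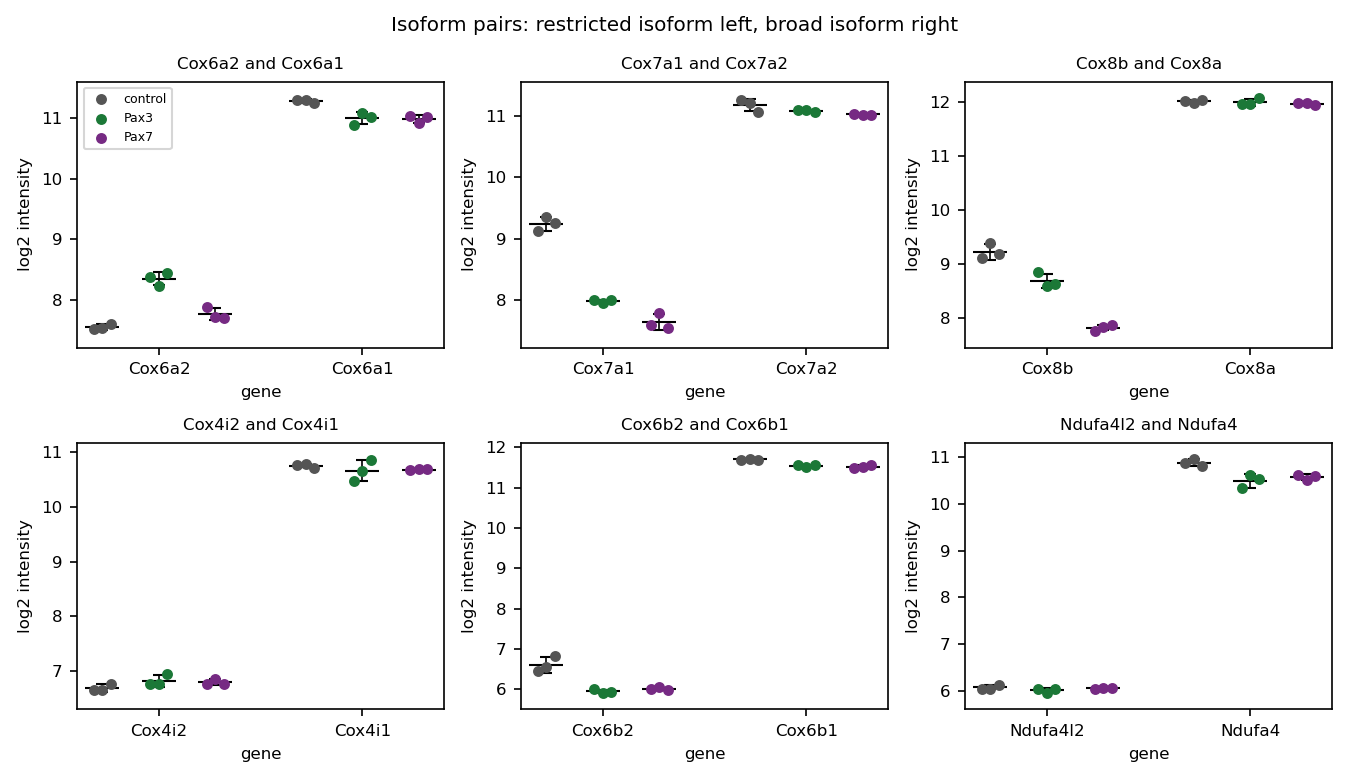
Log2 intensity in every array (points, 3 per group) for the 6 isoform pairs, the isoform restricted to a tissue or condition on the left of each panel and the widely expressed one on the right, with the group mean and SD as bars. Cox7a1 and Cox8b step down from control to Pax3 to Pax7, Cox6a2 is highest in Pax3 cells, and among the widely expressed isoforms Ndufa4 has the largest change from control, -0.39 in Pax3 cells.

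Cox7b2 and Cox8c are restricted isoforms without a partner here. Both are known from testis and lay at means of 4.18 and 6.05 over the 9 arrays and passed in no comparison. The other members of complex IV are widely expressed. Cox5a, Cox6c and Cox7a2l passed in no comparison, with changes of 0.01, 0.00 and 0.05 in Pax3 cells and 0.05, -0.04 and 0.08 in Pax7 cells. Cox6c lay at 12.31 to 12.39 in all 9 arrays. In all, 5 of 16 members of complex IV were lower and 1 higher in Pax3 cells, and 7 lower and 1 higher in Pax7 cells.

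Complex I is the NADH dehydrogenase and the largest of the complexes. Of its 34 subunits, 12 were lower and 2 higher in Pax3 cells and 18 lower and 1 higher in Pax7 cells. Ndufa9, a subunit at the junction of the membrane and matrix arms, read 10.74, 10.71 and 10.57 in control, 10.23, 10.25 and 10.12 in Pax3 and 10.16, 10.13 and 10.09 in Pax7 arrays. Both Pax groups lay below control, with changes of -0.47 ± 0.0559 (adjusted p = 3.96e-05, limma) and -0.54 ± 0.0559 (adjusted p = 1.08e-05).

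Ndufb10, a subunit of the distal membrane arm, read 8.21, 8.23 and 8.08 in control, 7.54, 7.69 and 7.75 in Pax3 and 7.68, 7.69 and 7.75 in Pax7 arrays. The Pax groups overlapped each other and lay below control, by -0.51 (adjusted p = 4.25e-05, limma) and -0.46 (adjusted p = 7.49e-05). Ndufb3 followed, at -0.39 (adjusted p = 0.013) and -0.43 (adjusted p = 0.00734), with a wide spread in the Pax3 arrays (7.37, 7.61 and 7.16), and its Pax3 call ended without control replicate 1 or 2.

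The subunits that carry the redox centres were lower in part. Ndufs1, the largest subunit and a carrier of iron-sulphur clusters, changed by -0.28 (adjusted p = 0.00145, limma) in Pax3 and -0.37 (adjusted p = 0.000187) in Pax7 cells. Ndufv1, which binds NADH and the flavin, was not past the threshold in Pax3 cells (-0.06, adjusted p = 0.237) and was lower in Pax7 cells (-0.17, adjusted p = 0.00329). Ndufv2 showed the same pattern (-0.12, adjusted p = 0.071, and -0.16, adjusted p = 0.0228), and its Pax7 call ended without control replicate 1 or 2 or any 1 of the Pax7 replicates. Ndufs7 and Ndufs8, which hold the clusters next to coenzyme Q, read slightly above control in both groups and passed in neither. Among the accessory subunits Ndufa2 was lower in both (-0.23 and -0.36, adjusted p = 0.00135 and 4.57e-05).

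The rises in complex I were small. Ndufa7 (0.19, adjusted p = 0.0412, limma) and Ndufs5 (0.14, adjusted p = 0.0458) were higher in Pax3 cells, and Ndufa6 (0.20, adjusted p = 0.0236) in Pax7 cells. The Ndufa7 call ended without control replicate 1 or 2, any 1 of the Pax3 replicates or Pax7 replicate 3. The Ndufs5 call ended without any 1 of the controls, Pax3 replicate 2 or 3, or Pax7 replicate 1 or 2. Both calls also ended with each array centred on its median and with only the 6 arrays of the 2 groups fitted. With a replicate block the Ndufs5 call ended too. The Ndufa6 call ended without control replicate 1 or 3, or Pax7 replicate 1 or 3. The 7 assembly factors, the Ndufaf genes, help to build the complex and are no part of it. Among them Ndufaf6 was higher in Pax3 cells (0.20, adjusted p = 0.01), Ndufaf4 was lower in Pax7 cells (-0.26, adjusted p = 0.00922), and the other 5 passed in neither, with changes of -0.14 to 0.17.

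Complex II, succinate dehydrogenase, links the chain to the citric acid cycle, and its 4 subunits did not move together. Sdha, the flavoprotein that oxidises succinate, read 11.13, 11.1 and 11.06 in control, 10.83, 10.95 and 10.86 in Pax3 and 10.91, 10.88 and 10.88 in Pax7 arrays. It lay below control in both, at -0.22 (adjusted p = 0.00231, limma) and -0.21 (adjusted p = 0.00292). Sdhb, the iron-sulphur subunit, read 10.54 to 10.56 in control and 10.67 to 10.69 in Pax3 arrays. It was higher there by 0.13 (adjusted p = 0.0186, limma). That call ended without control replicate 1 or 2, and with each array centred on its median. In Pax7 cells Sdhb read 10.58 to 10.65 and did not pass (0.07, adjusted p = 0.177). The membrane anchors went opposite ways in Pax7 cells, Sdhc at -0.20 (adjusted p = 0.00974) and Sdhd at 0.23 (adjusted p = 0.0129). In Pax3 cells neither anchor passed (-0.09 and 0.17, adjusted p = 0.235 and 0.058).

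All 7 measured members of complex III, the cytochrome bc1 complex, lay below control in both comparisons by their fitted change, and 3 in Pax3 and 4 in Pax7 cells passed the threshold. Of the 9831 brighter genes, 5012 in Pax3 and 5103 in Pax7 cells had a fitted change below 0. Uqcrh, the hinge protein that docks cytochrome c1 to cytochrome c, read 11.25, 11.24 and 11.27 in control, 10.65, 10.69 and 10.71 in Pax3 and 10.61, 10.52 and 10.56 in Pax7 arrays. The groups did not overlap, and both Pax groups were lower, by -0.57 ± 0.0413 (1.48-fold, adjusted p = 7.87e-07, limma) and -0.69 ± 0.0413 (1.61-fold, adjusted p = 1.2e-07).

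Uqcrfs1, the Rieske iron-sulphur protein, was lower by -0.24 in both groups (adjusted p = 0.0017 in Pax3 and 0.00138 in Pax7 cells, limma). Uqcr11 was lower by -0.26 (adjusted p = 0.0252) and -0.37 (adjusted p = 0.00331). The Pax3 call ended without control replicate 1 or 2 or Pax3 replicate 1 or 2. Of the 10 probe sets nearest by number to that of Uqcr11, 0 have a gene on its chromosome, 10, and most often they lie on chromosome 1, so that the probe set's gene is not sure. Without Uqcr11, 26 members were lower in Pax3 and 36 in Pax7 cells. The core proteins changed little: Uqcrc1 by -0.03 (adjusted p = 0.647) and -0.13 (adjusted p = 0.0123), and Uqcrc2 by -0.09 (adjusted p = 0.116) and -0.11 (adjusted p = 0.0501). Uqcr10 (-0.05 and -0.03) and Uqcrq (-0.04 and -0.11) passed in neither.

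**Figure D3:**
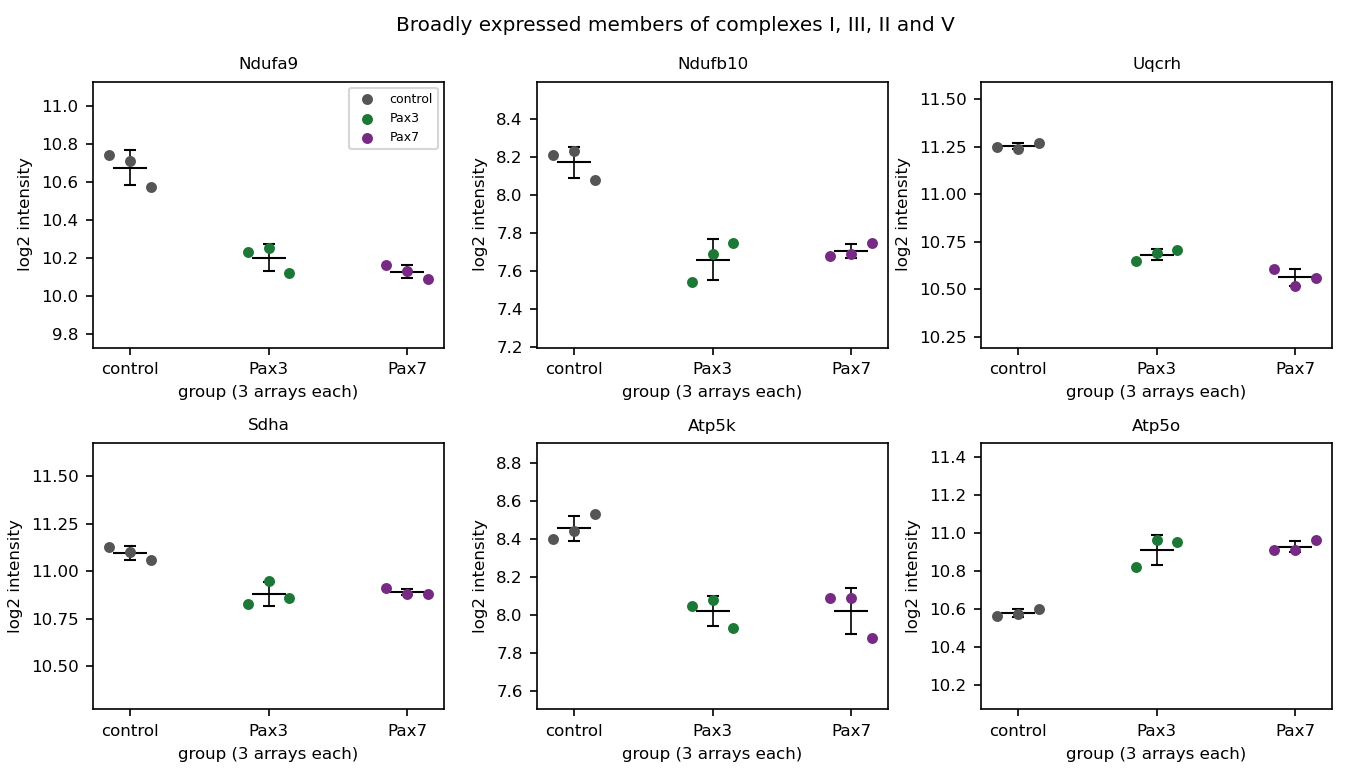
Log2 intensity in every array (points) with group mean and SD (bars) for widely expressed members of complexes I (Ndufa9, Ndufb10), III (Uqcrh), II (Sdha) and V (Atp5k, Atp5o); the vertical scales differ. The Pax3 and Pax7 arrays lie below all control arrays for the first 5 genes and above them for Atp5o (10.56 to 10.6 in control, 10.82 to 10.96 in the others).

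Complex V, the ATP synthase, had lower members in its stalks and its membrane part, and 2 that were higher. Of 12 members, 6 were lower and 2 higher in Pax3 cells, and 5 lower and 2 higher in Pax7 cells. The main catalytic subunits Atp5a1 (-0.11 and -0.11, adjusted p = 0.0721 and 0.0539, limma) and Atp5b (-0.01 and -0.08, adjusted p = 0.862 and 0.137) did not pass. Atp5k, a small membrane subunit tied to dimers of the enzyme, read 8.40, 8.44 and 8.53 in control, 8.05, 8.08 and 7.93 in Pax3 and 8.09, 8.09 and 7.88 in Pax7 arrays. It was lower by -0.44 in both groups (adjusted p = 0.000305 and 0.000274). Atp5e, the small subunit of the central stalk, was lower by -0.39 (adjusted p = 0.00407) and -0.44 (adjusted p = 0.00163). Atp5g3, which encodes the c subunit of the rotor ring, was lower by -0.25 (adjusted p = 0.00044) and -0.32 (adjusted p = 7.27e-05). It was the only c subunit gene analysed here. Atp5mpl (-0.34 and -0.30) and Atp5j2 (-0.25 and -0.23), both of the membrane part, were lower in both groups.

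Atp5o and Atp5j, both subunits of the peripheral stalk, were the members of complex V that were higher. Atp5o read 10.56, 10.57 and 10.6 in control, 10.82, 10.96 and 10.95 in Pax3 and 10.91, 10.91 and 10.96 in Pax7 arrays, and was higher by 0.33 (adjusted p = 0.00018, limma) and 0.35 (adjusted p = 0.000102). Atp5j read 11.52, 11.53 and 11.42 in control, 11.76, 11.83 and 11.77 in Pax3 and 11.78, 11.82 and 11.83 in Pax7 arrays, and was higher by 0.29 (adjusted p = 0.000264) and 0.32 (adjusted p = 0.000118). Neither overlapped control. Their partner in the same stalk, Atp5pb, was lower in Pax3 cells (-0.24, adjusted p = 0.00533) and read -0.15 in Pax7 cells (adjusted p = 0.0548), not past the threshold.

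Atp5o and Atp5j are the only members analysed here that lie on chromosome 16, and their neighbours there were higher too. This was looked at after their values were seen, with chromosomal order from the RefSeq table of GRCm38.p6. Of the 20 brighter genes nearest to Atp5j, 19 were higher in Pax3 cells, with a median log2 change of 0.65, and 19 in Pax7 cells, with a median of 0.74. Of those nearest to Atp5o, 18 and 17 were higher, with medians of 0.60 and 0.78. For the 78 members on other chromosomes, the same median over neighbours ran from -0.26 to 0.34 in Pax3 and from -0.3 to 0.28 in Pax7 cells. The changes of both genes lay below the median of their 20 neighbours. Chromosome 16 was then cut into 2 stretches where the sign of the changes turned, after the values were seen. The counts and medians of the stretches are thus partly fixed by the cut. Along chromosome 16, the last 77 of 327 brighter genes held 69 higher and 3 lower in Pax3 cells (median 0.59) and 68 higher and 4 lower in Pax7 cells (median 0.64), and the first 250 held 18 higher and 204 lower (median -0.59) and 21 higher and 202 lower (median -0.60). Between Pax7 and Pax3 cells the median was 0.01 for the last 77 genes and -0.02 for the first 250. On the 19 other chromosomes the median change of the brighter genes lay between -0.0278 and 0.0539 in Pax3 and between -0.0461 and 0.0315 in Pax7 cells. The part of this regional shift in the values of Atp5o and Atp5j was not tested. Without the 2 genes, 5 members were higher in Pax3 cells and 3 in Pax7 cells, and the counts of lower members were the same, at 27 and 37.

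**Figure D4:**
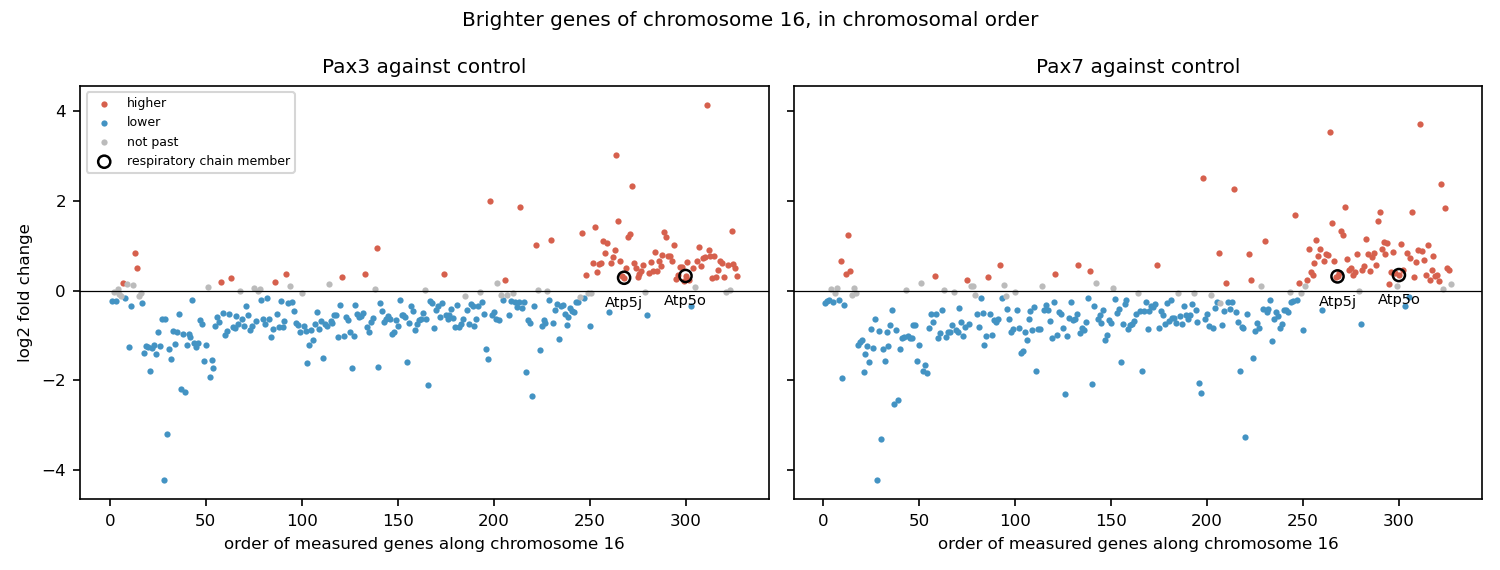
Log2 fold change of the 327 brighter genes of chromosome 16 in chromosomal order (order number, not distance), for Pax3 and Pax7 against control, coloured by limma's call at an adjusted p of 0.05; the circled points are Atp5j and Atp5o. Most of the first 250 genes lie below 0 and most of the last 77 above it, a cut set after the values were seen. Both members lie in the last stretch, at 0.29 to 0.35.

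The factors were then compared with each other. Of the 80 members 4 differed between Pax7 and Pax3 cells, all lower in Pax7: Cox8b (-0.87), Cox6a2 (-0.58), Cox7a1 (-0.33) and Ndufaf4 (-0.27, adjusted p = 0.0177, limma). That is 5.0% of the members, where 16.9% of all genes passed (8.54% lower and 8.33% higher), and of the brighter genes 13.7% were lower and 12.7% higher, and 14 members had an unadjusted p under 0.05. Against a 1.2-fold change Cox8b and Cox6a2 remained, where 3.99% of all genes passed (1.8% lower and 2.19% higher). Ndufaf4 read 9.13, 9.18 and 8.9 in Pax3 and 8.78, 8.83 and 8.78 in Pax7 arrays, and its call ended without Pax3 replicate 1, Pax3 replicate 2, Pax7 replicate 1 or Pax7 replicate 3. None of the members of complexes I, II, III or V passed here. Of the 16 markers of differentiated muscle, 12 were lower in Pax7 than in Pax3 cells (median -0.72), and their part in the values of the 3 muscle isoforms was not tested.

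Since the control and Pax cells differed in sex chromosome expression, the 3 X-linked members were set out by array. Ndufa1 read 8.27, 8.32 and 8.16 in control, 7.8, 8.34 and 8.21 in Pax3 and 8.41, 8.4 and 8.36 in Pax7 arrays. Pax3 replicate 1 was the lowest of all 9, and Ndufa1 passed in no comparison (-0.14 and 0.14 against control, adjusted p = 0.395 and 0.354, limma). Ndufb11 lay at 9.94 to 10.09 in all arrays with changes of 0.01 and -0.01, the first of which turned to -0.02 with each array centred on its median. Cox7b was lower in Pax7 cells (-0.23, adjusted p = 0.00555) and not past the threshold in Pax3 cells (-0.09, adjusted p = 0.263). Without these 3 genes, 27 members were lower in Pax3 and 36 in Pax7 cells.

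Genes that serve the chain from outside were taken from lists of the pathway, written with earlier results of these data known. The 13 subunits encoded by mitochondrial DNA had 0 measured genes. Among 17 measured electron carriers and coenzyme Q genes, 5 were lower (29.4%) and 4 higher (23.5%) in Pax3 cells. In Pax7 cells 6 were lower (35.3%) and 4 higher (23.5%). The largest fall by far was in Coq6, a monooxygenase of coenzyme Q synthesis, at 8.26, 8.28 and 8.26 in control, 5.16, 4.89 and 5.16 in Pax3 and 5.09, 5.18 and 5.3 in Pax7 arrays. The Pax groups overlapped each other far below control, at -3.20 (9.16-fold lower, adjusted p = 1.27e-10, limma) and -3.08 (8.45-fold lower, adjusted p = 1.02e-10). Coq8a, an atypical kinase of the same pathway, fell further in Pax7 cells (-0.91) than in Pax3 cells (-0.50), a difference of -0.40 (adjusted p = 0.00332). Pdss2, which makes the side chain, was higher in both (0.64 and 0.79), as was Coq10a (0.48 and 0.42). Cycs, cytochrome c, read 6.21, 6.4 and 6.31 in control, 5.89, 5.78 and 5.85 in Pax3 and 5.79, 5.66 and 5.27 in Pax7 arrays and was lower in both (-0.47, adjusted p = 0.00585, and -0.74, adjusted p = 0.000246).

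Assembly factors of complexes II to V went both ways, 13 lower and 6 higher of 30 in Pax3 cells and 14 lower and 5 higher in Pax7 cells. Cox18, an insertase for a complex IV core subunit, was higher in both (0.72 and 0.70, adjusted p = 2.34e-07 and 2.24e-07, limma). Coa3, an early complex IV factor, was higher by 0.54 in Pax3 and 0.72 in Pax7 cells and differed between them (0.18, adjusted p = 0.009). Tmem70, which helps to assemble ATP synthase (-0.59 and -0.73), Sdhaf4, a complex II factor (-0.59 and -0.59), Cox19 (-0.56 and -0.64) and the copper chaperone Cox17 (-0.53 and -0.69) were lower in both. Of 9 further complex I assembly factors, 4 were lower (44.4%) and 2 higher (22.2%) in each group. Tmem186 (-1.30 and -1.29, adjusted p = 8.95e-09 and 6.34e-09) and Timmdc1 (-0.55 and -0.62) were lowest, and Nubpl (0.39 and 0.32) and Tmem126a (0.32 and 0.30) higher. Tmem186, Timmdc1 and Cox17 lie in the first stretch of chromosome 16, where most genes were lower.

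Regulators of mitochondrial biogenesis gave no single direction, with 7 of 25 lower and 6 higher in Pax3 cells and 9 lower and 4 higher in Pax7 cells. Ppargc1a, the coactivator PGC-1α, read 6.72, 6.88 and 6.97 in control, 8.05, 7.95 and 7.74 in Pax3 and 7.75, 7.93 and 7.74 in Pax7 arrays. It was higher in both groups, 2.08-fold (1.06, adjusted p = 2.94e-06, limma) and 1.93-fold (0.95, adjusted p = 5.87e-06), in the same cells in which more respiratory chain members were lower than higher. Ppard, a nuclear receptor of fatty acid use, was higher too (0.57 and 0.71). Sirt1, a deacetylase that acts on PGC-1α, was lower (-1.0 and -0.96, adjusted p = 1.69e-06 and 1.84e-06). Mef2c, a muscle transcription factor, was lower in both (-1.29 and -2.48), and was lower in Pax7 than in Pax3 cells (-1.18, adjusted p = 6.23e-06). Gabpa, whose product binds the ETS motif, was higher (0.50 and 0.39) and is the gene next to Atp5j on chromosome 16.

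Of 23 measured genes of the citric acid cycle and pyruvate dehydrogenase, 11 were lower and 4 higher in Pax3 cells, and 13 lower and 4 higher in Pax7 cells. Pdk4 and Pdk1, kinases that switch off pyruvate dehydrogenase, had the largest changes of the list. Pdk4, the kinase of fasting and fat use, read 11.18 to 11.27 in control, 9.3 to 9.38 in Pax3 and 9.31 to 9.41 in Pax7 arrays, 3.64-fold and 3.58-fold lower (-1.87 and -1.84, adjusted p = 2.08e-10 and 1.37e-10, limma). Pdk2 (-0.55 and -0.78) and Pdk3 (-0.27 and -0.38) were lower as well. Pdk1, the kinase induced by low oxygen, was higher by 1.28 (adjusted p = 1.81e-06) and 1.01 (adjusted p = 1.02e-05). Pcx, pyruvate carboxylase (0.74 and 0.67), and Idh2, the NADP-linked isocitrate dehydrogenase of mitochondria (0.53 and 0.68), were also higher.

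Fatty acid oxidation had 7 of 15 genes lower (46.7%) and 5 higher (33.3%) in each group. Slc25a20, the carnitine carrier, had the largest change in Pax3 cells (-0.62, and -0.40 in Pax7 cells), and Acaa2, a thiolase, the largest in Pax7 cells (0.43, and 0.16 in Pax3 cells), with 0.27 between Pax7 and Pax3 (adjusted p = 0.00107, limma). Eci1 was lower in both (-0.36 and -0.24). Eci2 was higher (0.34 and 0.40) and Acadm lower (-0.31 and -0.30) in both. Among 17 carriers and energy transfer genes, 9 were lower (52.9%) and 1 higher (5.88%) in Pax3 cells, and 8 lower (47.1%) and 2 higher (11.8%) in Pax7 cells. Ckm, muscle creatine kinase and also 1 of the 16 muscle markers, was lower by -2.80 and -3.28 and Ckb, the brain form, by -2.0 in each (adjusted p = 8.4e-10 and 4.63e-10, limma). Ak1, adenylate kinase (-0.61 and -0.77), and Slc25a10, the dicarboxylate carrier (-0.69 and -0.71), were lower as well. Slc25a13, an aspartate-glutamate carrier, read 7.66 to 7.7 in control, 6.99 to 7.3 in Pax3 and 8.55 to 8.65 in Pax7 arrays. It was lower in Pax3 cells (-0.57, adjusted p = 6.54e-05), higher in Pax7 cells (0.92, adjusted p = 1.1e-06), and 2.8-fold higher in Pax7 than in Pax3 cells (adjusted p = 2.28e-07).

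**Figure D5:**
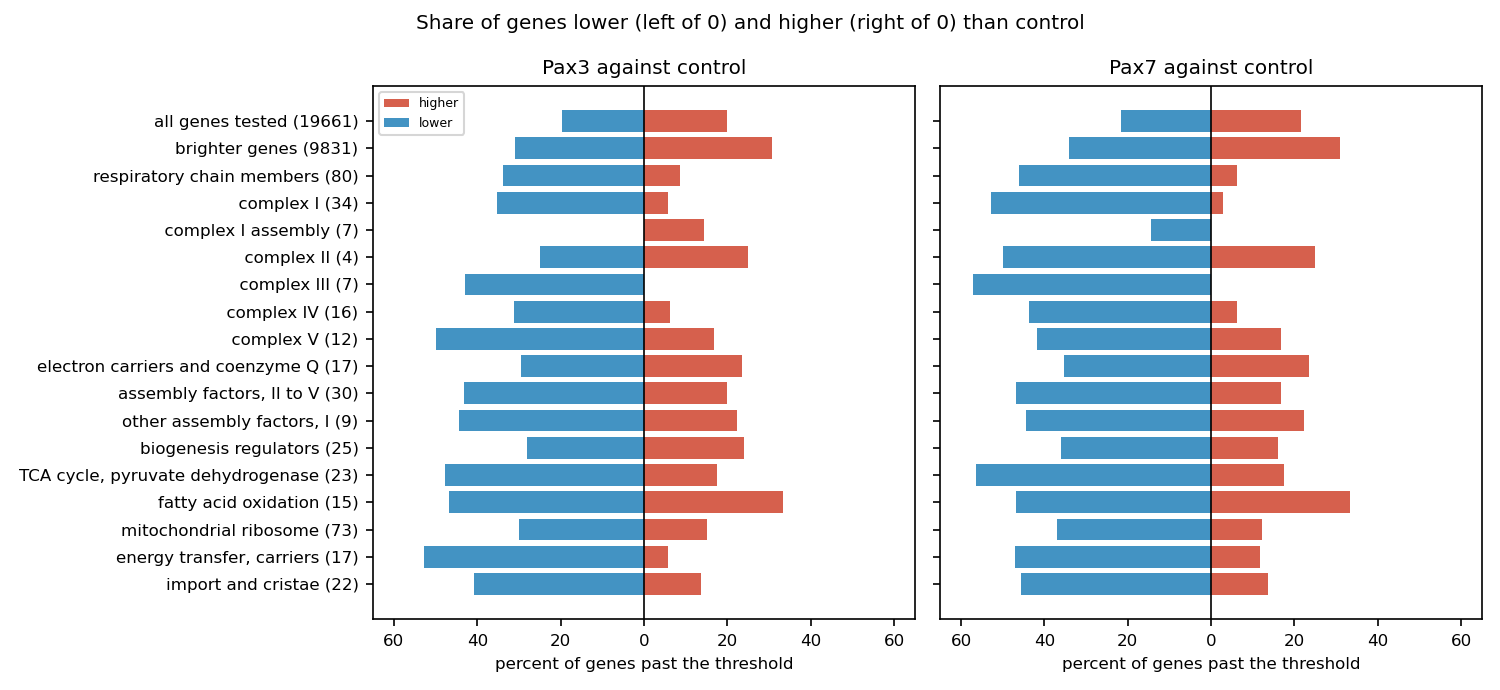
Percent of genes lower (left, blue) and higher (right, red) than control by limma at an adjusted p of 0.05, for all genes, the brighter genes, the 80 members, each complex and the further lists, with the number measured in brackets. The bars of the members lean to the left, with 33.8% lower and 8.75% higher in Pax3 and 46.2% lower and 6.25% higher in Pax7 cells.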

How the data were processed

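Total RNA of 9 samples, 3 per group, was hybridised to Affymetrix arrays. The deposited values are log2 intensities made by RMA, with R 2.10.0, per the submitters' processing notes. The sources used here do not give a genome build. RMA gives arrays a shared distribution and compresses changes of dim genes. The 25668 probe sets held values of 1.93 to 13.2, with array medians of 6.397 to 6.477. The number of arrays limits the precision.

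Names came from the platform annotation: 20777 probe sets had 1 symbol, 232 several and 4659 none. Each of 19661 genes was represented by its probe set of highest mean, so the 80 members stood for 81 probe sets. Group means were estimated from the 9 arrays together in limma 3.58.1 (R 4.3.3), with p-values adjusted by Benjamini-Hochberg over all genes, with a threshold of 0.05 and, as an alternative, treat against 1.2-fold. Errors are moderated standard errors, and those of isoform differences are from the 2 groups' SDs. The method was tested on simulated data. Isoform pairs were compared by exact permutation. Alternatives were a trended robust prior, brighter genes only, the mean over probe sets, 6 arrays per fit, a replicate block, centred arrays and leaving out each array.

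Named were, per comparison, up to 4 called members of each complex with the largest change, the isoform pairs, complex II, X-linked members, and up to 4 called genes per further list, not all of which are printed. Ndufa2, Ndufa6, Ndufa7, Ndufs5, Ndufs7, Ndufs8, Ndufv1, Ndufv2, the assembly factors, Uqcr10, Uqcrc2, Uqcrq, Atp5a1, Atp5b, Atp5g3, Atp5j2, Atp5pb, Cox5a, Cox6c, Cox7a2l, Cox7b2, Cox8c, Pdk3, Gabpa and Mrpl40 were added after their values were seen. The members and lists were chosen with earlier results of these data known. Promoters came from RefSeq (GRCm38.p6).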

Additional observations from a re-analysis of the deposited data

How the results depend on the processing

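Against a 1.2-fold change (treat), the higher and lower members numbered 1 and 6 in Pax3 and 0 and 6 in Pax7 cells against control, and 2 were lower between Pax7 and Pax3. With each array centred, 4 were higher in Pax3 cells. Between Pax7 and Pax3 cells, 10 were lower with a trended, robust prior, 8 with brighter genes only and 1 without the restricted isoforms. Without the members on chromosome 16, 3 were higher in Pax7 cells. These last alternatives, on isoforms and chromosome 16, were chosen after seeing the data.

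Leaving out 1 array gave 4 to 7 higher and 22 to 29 lower members in Pax3 cells, 3 to 5 higher and 29 to 40 lower in Pax7 cells, and 0 to 2 higher and 3 to 4 lower between them. The higher count was 4 in Pax3 cells without control replicate 1 or 2, and 3 in Pax7 cells without control replicate 1 or Pax7 replicate 1. Between Pax7 and Pax3 it was 2 without Pax3 replicate 2 and 1 without Pax3 replicate 3.

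Small changes crossed 0 when 1 array was left out. Against control these were, in Pax3 cells, Cox4i1 (-0.193 to 0.0023), Ndufa1 (-0.248 to 0.0213) and Ndufb11 (-0.00465 to 0.0203), and in Pax7 cells Ndufa4l2 (-0.0253 to 0.0134) and Ndufb11 (-0.0559 to 0.0213). Between Pax7 and Pax3 they were Cox4i1 (-0.0775 to 0.118), Cox4i2 (-0.0585 to 0.0359), Cox6a1 (-0.0643 to 0.036), Cox8a (-0.0358 to 0.0162), Ndufb11 (-0.0665 to 0.0107), Sdha (-0.0147 to 0.0483) and Sdhd (-0.0195 to 0.117), and the isoform differences Cox4i2/Cox4i1 (-0.0817 to 0.0239) and Ndufa4l2/Ndufa4 (-0.124 to 0.0533). Centring reversed Ndufb11 in Pax3 cells (-0.0183) and, between Pax7 and Pax3, Cox6a1 (0.0111) and Cox8a (0.00106). The cause was not tested.

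Same-numbered arrays did not deviate together in all pairs (correlations of -0.026 to 0.225). They were 0.0695, 0.143 and 0.218 for Pax3 and control, and -0.026, 0.0109 and -0.0133 for Pax7 and control. With 3 arrays per group, such correlations cannot decide whether the numbers pair the samples. With the replicate block, 6 members were higher and 27 lower in Pax3 cells, 5 and 36 in Pax7 cells, and 0 and 4 between them, and 33 of 34, 40 of 42 and 4 of 4 calls were shared. Of the named genes' values under all alternatives, 1221 kept direction and call, 56 lost the call, 8 gained one and 18 reversed. The number of arrays limits the precision.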

Other observations

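Among 73 mitochondrial ribosome genes, 22 were lower and 11 higher than control in Pax3 cells (30.1% and 15.1%) and 27 lower and 9 higher in Pax7 cells (37.0% and 12.3%) by limma. Of the brighter genes 31.0% were lower and 30.7% higher in Pax3 cells, and 3343 and 3044 of 9831 in Pax7 cells. Mrpl51 (-0.74 and -0.89) and Mrpl3 (-0.63 and -0.79) fell in both comparisons, as did Mrpl18 (-0.62 and -0.53) and Mrps2 (-0.47 and -0.62), and Mrpl39 was higher in both (0.67 and 0.66). Mrpl1 was lower in Pax7 than in Pax3 cells (-0.44, adjusted p = 0.000506). Of 22 genes of protein import and cristae, 9 were lower and 3 higher in Pax3 cells (40.9% and 13.6%) and 10 lower and 3 higher in Pax7 cells (45.5% and 13.6%). Opa1, a dynamin-like GTPase of the inner membrane, was lower in both (-0.57 and -0.73), as were the import receptor Tomm70a (-0.46 and -0.43) and the fission GTPase Dnm1l (-0.33 and -0.39), while the matrix chaperone Hspa9 was higher in both (0.37 and 0.27). Timm22 was lower in Pax7 cells (-0.44). No gene of this list passed between Pax7 and Pax3 cells by limma, 0 of 22, with 4 at an unadjusted p under 0.05.

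Of the genes in the further lists, 11 lie on chromosome 16, and 11 of these passed in both comparisons with control. Most genes there did: of its 327 brighter genes, 63.3% were lower and 26.6% higher in Pax3 cells. In Pax7 cells 63.0% were lower and 27.2% higher. Tmem186, Dnm1l, Mrpl40, Opa1, Cox17, Timmdc1 and Tomm70a, all in the first stretch of 250 genes, were lower, and Mrpl39, Gabpa and Mrps6, in the last stretch of 77, were higher. Slc25a1, in the first stretch, was the exception, higher by 0.37 and 0.58. These genes were set out, and the cut between the stretches was placed, after the values were seen. The part of the regional shift in the changes of these genes was not tested.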
